A study of Homo sapiens with 12 samples.

Results

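The genes of the AP-1 transcription factor family were examined in H3K27ac peak lists of the human breast cancer cell line MDA-MB-231. The 8 genes FOSL1, FOSL2, FOS, FOSB, JUN, JUNB, JUND and ATF3 were represented by 9 start sites given to the nearest kb in hg19, since ATF3 entered with an upstream and a downstream start. Peaks within 5 kb of a start site were taken as the members, and 50 kb on either side were examined for further peaks. The members were 89 of the 667017 peaks in the 9 lists, with 9 or 10 in each library. The rule itself uses gene names and positions and no measured value, but the family was chosen with earlier results of these data known.

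AP-1 is a dimer of basic leucine zipper proteins. FOS proteins bind DNA only as partners of JUN proteins, JUN proteins also pair among themselves, and ATF3, a member of the ATF/CREB family, can pair with JUN. Several of the genes are immediate early genes, switched on within minutes by growth factors or stress, and AP-1 binds many enhancers of basal-like breast cancer cells. H3K27ac, acetylation of lysine 27 of histone H3, marks active promoters and enhancers. CDK8 and CDK19 are paralogous kinases of the Mediator complex, and CDK8 has been described as a coregulator of immediate early genes.

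The cells had been infected with lentivirus 96 h before ChIP. Control cells received the virus labelled EV-control, CDK19KD cells a virus with an shRNA against CDK19, and CDK8KD cells a virus with an shRNA against CDK8, so that infected cells made up all 3 groups. Each group had 3 libraries from native, unfixed chromatin of 250000 to 500000 cells. The levels of CDK8 and CDK19 were not analysed here, so the knockdowns were not checked. Nothing in the labels states that the libraries of a group came from separate cultures, so p-values measure only the spread between these libraries. The sequencing depth of the libraries is unknown.

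The Control lists held 65579 to 87530 peaks on the autosomes and X, the CDK19KD lists 65898 to 74654 and the CDK8KD lists 62669 to 74761. These peaks covered 262.9 to 315.7 Mb in Control, 261.7 to 271.2 Mb in CDK19KD and 292.1 to 318.3 Mb in CDK8KD. Each CDK8KD list thus covered more of the genome than any CDK19KD list, and this general difference runs in the same direction as several results for the AP-1 genes. Values scaled by total covered length are therefore given beside most differences described in detail and the median differences over the family. No scaled value is given for the lengths of the regions over JUN, JUNB and JUND or of the region beside JUND.

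The sequences upstream of 6 of the genes are shown because an H3K27ac peak lay over the start of each of them in every library, and because they differ in the AP-1 and CRE-like elements that the family is known to use on its own genes. RefSeq promoter windows (GRCh38.p14) were found for FOSL2, FOS, FOSB, JUN, JUNB, JUND and ATF3, 7 of the 8 genes. Each sequence is the 250 bases before the annotated start, 5′ to 3′ on the strand of the gene, with the matches to the motifs described after them in capitals. In GRCh38.p14 the positions are FOSL2 chr2:28392608-28392857 (plus strand), FOS chr14:75278578-75278827 (plus strand), FOSB chr19:45467746-45467995 (plus strand), JUN chr1:58784048-58784297 (minus strand), JUND chr19:18281623-18281872 (minus strand) and ATF3 chr1:212565157-212565406 (plus strand). For ATF3 the window of the more upstream start in that table is shown.
FOSL2: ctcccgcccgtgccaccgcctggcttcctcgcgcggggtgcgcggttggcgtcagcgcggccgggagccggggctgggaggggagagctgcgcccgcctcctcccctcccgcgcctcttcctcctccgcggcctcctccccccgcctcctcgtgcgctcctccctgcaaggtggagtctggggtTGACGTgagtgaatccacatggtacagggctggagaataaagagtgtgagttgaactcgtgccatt
FOS: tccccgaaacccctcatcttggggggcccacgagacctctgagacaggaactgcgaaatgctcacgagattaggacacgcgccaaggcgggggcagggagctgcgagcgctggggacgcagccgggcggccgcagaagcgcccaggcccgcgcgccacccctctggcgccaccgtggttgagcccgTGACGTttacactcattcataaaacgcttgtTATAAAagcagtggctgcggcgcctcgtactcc
FOSB: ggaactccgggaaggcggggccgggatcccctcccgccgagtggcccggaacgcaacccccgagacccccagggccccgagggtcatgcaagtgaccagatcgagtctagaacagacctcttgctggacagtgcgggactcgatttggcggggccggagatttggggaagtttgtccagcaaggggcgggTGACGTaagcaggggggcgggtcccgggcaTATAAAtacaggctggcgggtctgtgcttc
JUN: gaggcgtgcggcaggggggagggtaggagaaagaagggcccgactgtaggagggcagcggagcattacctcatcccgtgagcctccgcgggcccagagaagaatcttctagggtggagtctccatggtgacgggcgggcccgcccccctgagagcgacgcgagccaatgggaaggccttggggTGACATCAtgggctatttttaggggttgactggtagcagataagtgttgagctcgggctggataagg
JUND: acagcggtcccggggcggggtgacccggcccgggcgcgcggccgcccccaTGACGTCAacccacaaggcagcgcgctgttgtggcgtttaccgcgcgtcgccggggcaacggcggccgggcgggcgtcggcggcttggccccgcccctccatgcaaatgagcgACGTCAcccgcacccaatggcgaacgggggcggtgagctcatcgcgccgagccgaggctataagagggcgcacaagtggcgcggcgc
ATF3: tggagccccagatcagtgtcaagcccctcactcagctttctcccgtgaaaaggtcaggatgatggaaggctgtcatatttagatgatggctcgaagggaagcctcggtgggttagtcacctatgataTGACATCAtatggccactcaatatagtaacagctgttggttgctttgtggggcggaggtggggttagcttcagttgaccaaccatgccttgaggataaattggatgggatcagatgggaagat

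The motifs searched were TGACTCA, TGACGTCA, its shorter core TGACGT, and TGACATCA on both strands, and TATAAA on the forward strand. Positions are counted back from the base before the start. JUN carried TGACATCA at −67 to −60, and the ATF3 window carried the same 8 letters at −123 to −116. This element, known from the JUN promoter as a site for JUN and ATF2 dimers, was present in 2.37% of 35116 promoter windows of 250 bases. JUND held the full palindrome TGACGTCA at −200 to −193, found in 1.65% of the windows, and a further TGACGT on the reverse strand at −87 to −82.

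The core TGACGT, which overlaps the palindrome, was found in 7.1% of the windows. It lay at −66 to −61 in FOSL2, at −64 to −59 in FOS and at −60 to −55 in FOSB, a similar place in all 3 FOS family genes with a window. FOS and FOSB also held TATAAA, which was present in 6.8% of the windows, at −33 to −28 and −30 to −25. In JUNB the search found TATAAA at −31 to −26 and none of the other 4 motifs. TGACTCA, the classical AP-1 site, was in none of the 7 genes' windows and in 4.2% of all windows. A match is a description of letters and does not show binding.

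All 9 start sites lay under an H3K27ac peak in all 9 libraries, which makes 81 of 81 pairs of site and library. In 73 of the pairs 1 peak reached within 5 kb and in 8 pairs 2 peaks did. By the −log10 p that the authors' peak caller gave, the strongest peak at a site was among the 20000 strongest of its list in 80 of the 81 pairs, all but FOSB in Control replicate 2. Fold enrichment, −log10 p and the percentile of a peak within its own list are the authors' peak values or ranks of them, and they describe each list only. The percentile of the strongest peak within 5 kb ranged from 75.8 to 99.93 with a median of 92.58.

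**Figure D1:**
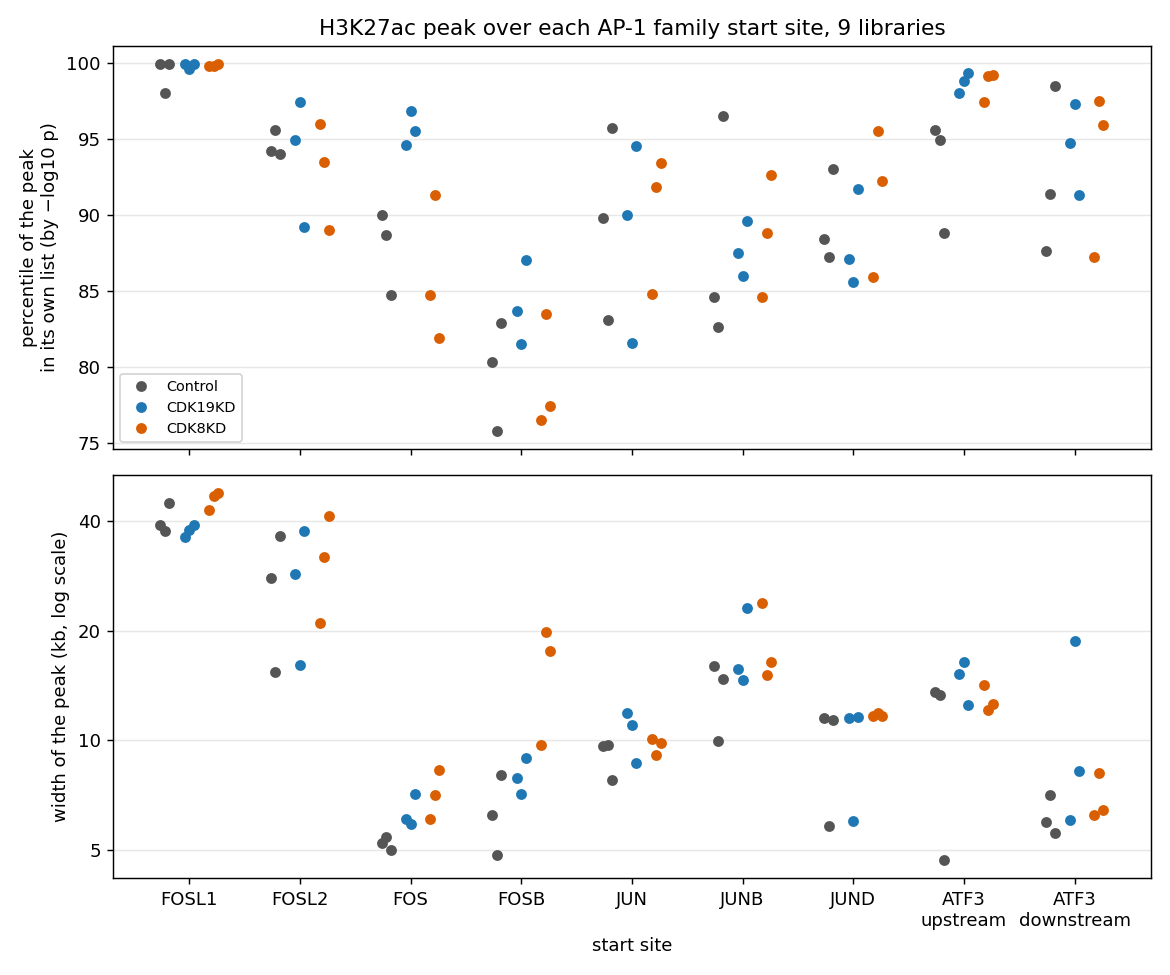
Percentile of the peak over each start site within its own list (upper panel) and width of that peak in kb on a log scale (lower panel), 1 point per library, coloured by group. FOSL1 has the highest percentiles, 98.0 to 99.9, and widths of 36.25 to 47.76 kb, while the FOS peak is 4.98 to 8.29 kb wide.

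Among the FOS family, FOSL1, which encodes FRA-1, a factor abundant in basal-like breast cancer cells, had the strongest peak. It was 36.25 to 47.76 kb wide (median 38.99 kb), had a fold enrichment of 5.2 to 10.28, and stood at the 98.0th to 99.9th percentile of its list. FOSL2, which encodes the related FRA-2, lay under a peak of 15.41 to 41.34 kb (median 28.58 kb) at the 89.0th to 97.4th percentile. Both genes thus lay inside long acetylated stretches, and the 10 kb around either start was covered completely in every library.

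FOS, the founding immediate early gene of the family, had a compact peak of 4.98 to 8.29 kb (median 6.06 kb) at the 81.9th to 96.8th percentile. FOSB, its closest relative with a transactivation domain, had a peak of 4.84 to 19.84 kb (median 8.05 kb) and the lowest percentiles of the family, 75.8 to 87.0. The FOSB fold enrichment was 3.38 to 5.73. FOS and FOSB therefore differed from FOSL1 in that neither filled its 10 kb window in most libraries, with mean covered shares of 62.73% and 75.78%.

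Among the JUN family, JUN, the main activating partner, had a peak of 7.78 to 11.87 kb (median 9.73 kb) at the 81.6th to 95.7th percentile. JUNB, a weaker activator that can oppose JUN, had a peak of 9.94 to 23.91 kb (median 15.71 kb) at the 82.6th to 96.5th percentile. JUND, whose expression is known to vary least with growth signals, had a peak of 5.8 to 11.9 kb (median 11.51 kb) at the 85.6th to 95.5th percentile. The JUND peak was broken in Control replicate 2 and CDK19KD replicate 2, where the piece over the start was 5.80 and 5.98 kb wide. A separate peak lay beside that piece on the side of lower coordinates. In the other 7 libraries the peak measured 11.38 to 11.9 kb.

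ATF3, a stress-induced gene whose product often represses, had its higher median percentile at the upstream start, although in Control replicate 3 the peak over the downstream start ranked higher (98.5 against 88.8). The upstream peak was 4.69 to 16.46 kb wide (median 13.34 kb) and stood at the 88.8th to 99.3rd percentile, with a median of 98.0 that was next to FOSL1 in the family. The peak at the downstream start was 5.55 to 18.77 kb wide (median 6.43 kb), at percentiles of 87.2 to 98.5 of its list. In Control replicate 3 the upstream peak was broken, and its stronger piece, beside the start, stood at the 99.74th percentile. Ranks come from lists of different lengths and show no change between groups.

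The family was compared with the rest of the genome on 3 measures. These were the share of the 10 kb window centred on a start that peaks covered, the share of the 100 kb window, and the covered length of the merged region over the start. A merged region is the stretch formed by overlapping peaks of the 9 lists, so its bounds can come from a single library or group. Over the 9 libraries the median site had 88.54% of its 10 kb window covered, against a median of 29.41% over the 78056 genomic windows tested. For 100 kb windows the medians were 41.03% for the sites and 16.72% over 13174 windows. The merged regions over the sites had a median covered length of 14.22 kb, against 4.88 kb over the 34048 regions held by all 9 libraries. These are descriptions, and start sites of active genes in general were not used for comparison.

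The order of the genes depended on the scale. In the 100 kb window the mean share was highest for FOSL1 (61.47%), FOSB (59.81%) and FOSL2 (57.66%), followed by JUN (53.53%), JUND (41.03%), ATF3 upstream (39.12%), ATF3 downstream (37.61%), JUNB (32.07%) and FOS (26.4%). Neighbours in this order overlapped in their libraries, for example FOSL1 at 53.2% to 73.0% and FOSB at 47.0% to 76.9%. FOSB, low by the peak over its start, was thus among the highest by the acetylated share around it. The 2 ATF3 windows overlap each other and are not separate measurements.

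The genes differ in what lies next to them. The RefSeq gene table (GRCh38.p14) lists 10 other protein-coding genes within 50 kb of FOSL1, among them FIBP, CCDC85B, C11orf68 and DRAP1, and 8 around JUNB, among them HOOK2 and PRDX2. FOSB has 4 such neighbours (ERCC1, RTN2, PPM1N and VASP), JUND has 4 and ATF3 has 1, while none is listed around FOS, FOSL2 or JUN. Which of the peaks around FOSL1, JUNB and FOSB go with the neighbouring genes was not tested.

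**Figure D2:**
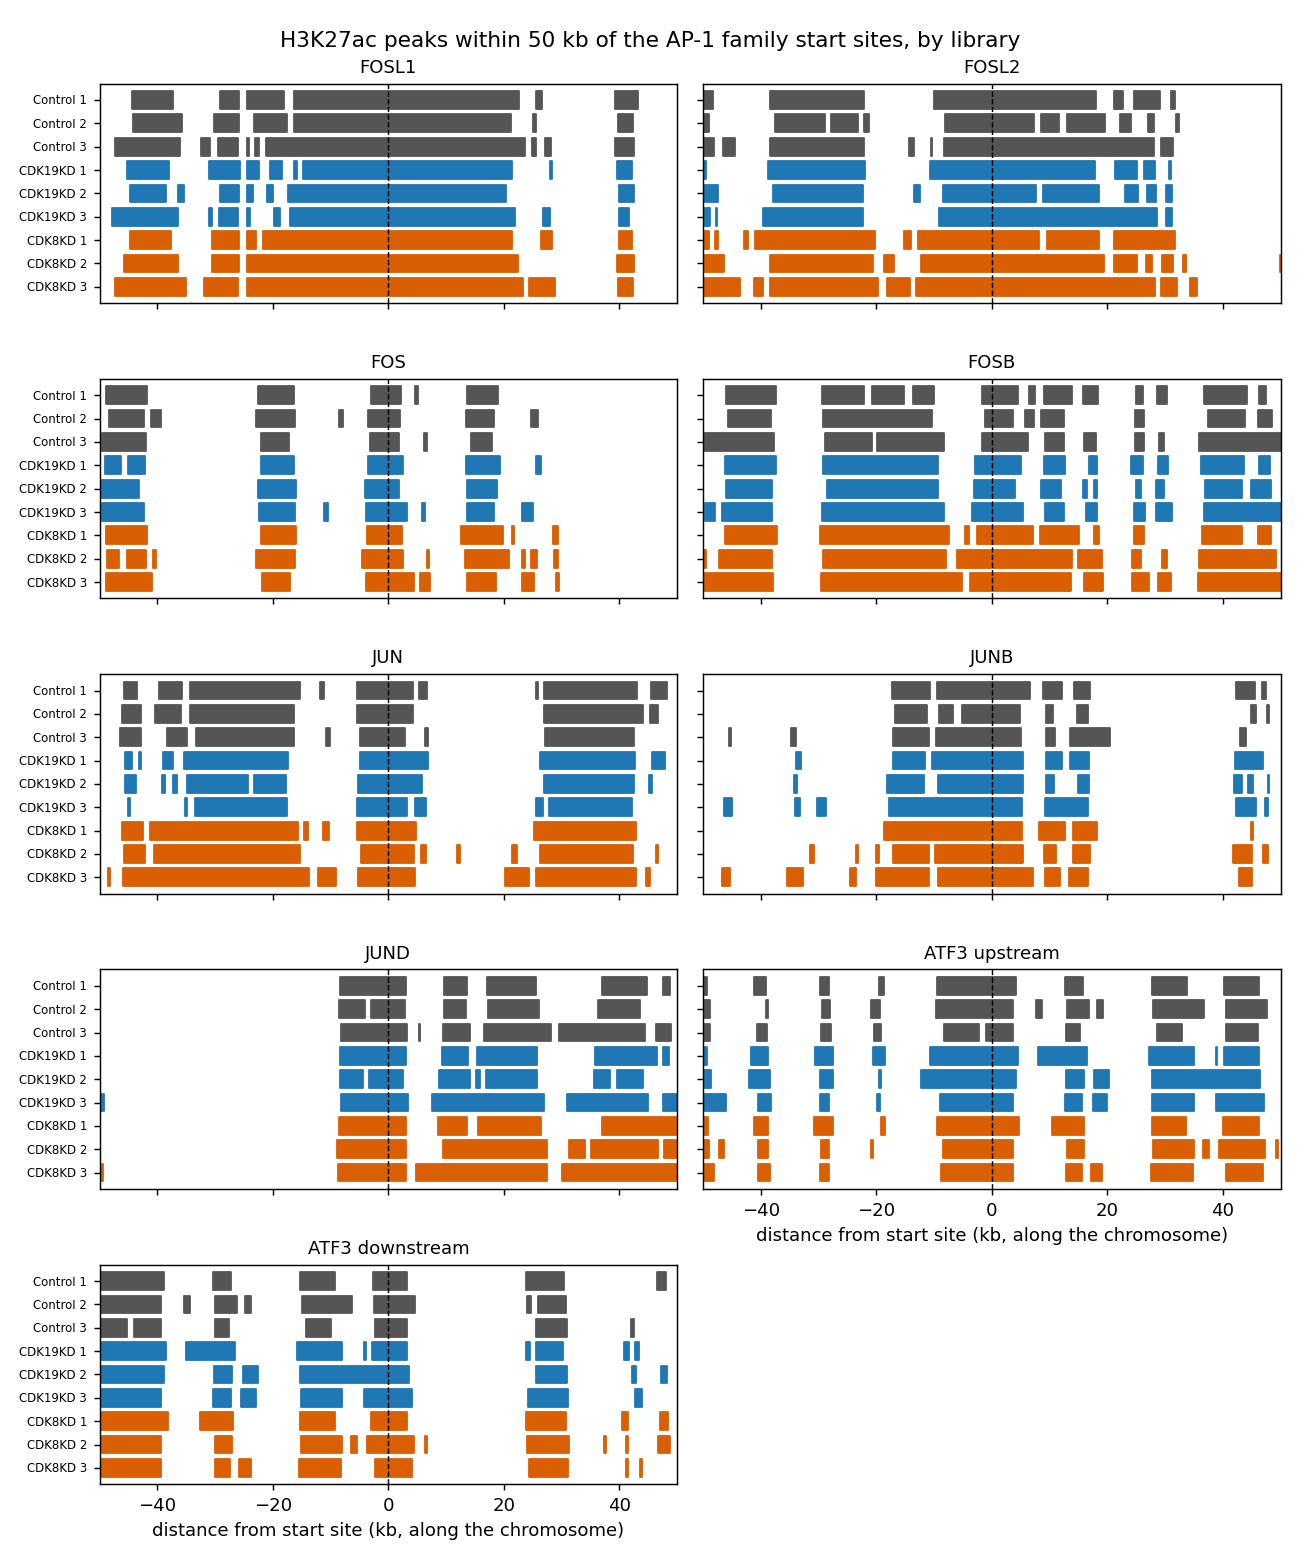
H3K27ac peaks within 50 kb of each start site, 1 row per library and coloured by group, drawn against the distance from the start along the chromosome in kb. A peak crosses the dashed line of the start in all 9 rows of every panel, and by median width the FOSL1 and FOSL2 peaks are the widest (38.99 and 28.58 kb) and the FOS peak the shortest (6.06 kb).

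CDK8KD and Control were compared first. The FOSB and FOS peaks covered more in CDK8KD, but no start site passed the test in the reported fit, which has no replicate block. FOSB was called with narrower windows, as given at the end. FOSL1 and FOSL2 filled the 10 kb window in all 9 libraries and JUNB in 8, so these sites could hardly be called on that measure in any comparison. With limma and Benjamini-Hochberg adjustment over all windows or regions, 0 of 9 sites were called at an adjusted p under 0.05 on the 10 kb share, where 0.716% of all windows were called. For the 100 kb share 0 of 9 were called against 0.804% of windows, and for the region length 0 of 9 against 0.69% of regions. At an unadjusted p under 0.05 there were 2 sites on each measure, where 14.7%, 19.1% and 15.2% of all windows or regions had such a p. With the replicate number as a block 2 of 9 sites were called on the 100 kb share (FOSB and FOSL2, against 7.35% of windows) and 1 of 9 on region length (FOSB, against 4.57% of regions). The block gave 2, 3 and 4 sites with an unadjusted p under 0.05, against 20.1%, 30.5% and 23.1% of all windows or regions.

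The region over FOSB (hg19 chr19:45941239-45990240) had the largest log2 difference in length of the 9 sites between these groups. Only the peaks of the 3 CDK8KD libraries join it into a single region, and each of these libraries is needed for that. Its extent therefore comes from the group that was higher. In every library the peak over the start was separate from the next peaks on either side. It was widest in CDK8KD replicates 2 and 3 (19.84 and 17.57 kb). The lengths are summed over all peaks in the region. Peaks covered 31.0, 29.2 and 33.3 kb of it in Control (31.2 ± 2.04 kb, SD, n = 3), 33.0, 30.9 and 35.4 kb in CDK19KD (33.1 ± 2.26 kb) and 40.4, 45.4 and 45.2 kb in CDK8KD (43.7 ± 2.82 kb). The 3 CDK8KD libraries lay above all 6 others. The log2 difference between CDK8KD and Control was 0.49 ± 0.099 (SE, adjusted p = 0.0666 by limma), and 0.46 after scaling by the total covered length of each library (adjusted p = 0.125). With the replicate block the adjusted p was 0.0198.

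Closer to the FOSB start the 10 kb window was covered to 62.2%, 48.4% and 67.1% in Control, to 78.2%, 71.1% and 84.3% in CDK19KD and to 82.9%, 100% and 87.9% in CDK8KD. Both knockdown groups lay above Control without overlap. The difference from Control was 31.0 ± 6.45 percentage points for CDK8KD (SE, adjusted p = 0.0885) and 18.6 ± 6.45 points for CDK19KD (adjusted p = 0.425), or 28.3 and 25.96 points after scaling (adjusted p = 0.181 and 0.304). In the 100 kb window the shares were 51.2%, 47.0% and 62.2% in Control and 60.3%, 71.0% and 76.9% in CDK8KD, which overlap. That difference was 15.9 ± 5.87 points (adjusted p = 0.193, or 0.0365 with the replicate block) and 14.0 points after scaling (adjusted p = 0.203).

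The 100 kb around FOSL2 were covered to 52.5%, 43.7% and 59.9% in Control (52.0% ± 8.13), to 51.9%, 49.7% and 57.6% in CDK19KD (53.1% ± 4.05) and to 64.8%, 62.9% and 75.8% in CDK8KD (67.9% ± 6.97). Every CDK8KD library was above every library of the other groups. The difference from Control was 15.8 ± 5.34 points with an adjusted p of 0.163, and with the replicate block the adjusted p was 0.0246. After scaling it was 13.8 points (adjusted p = 0.195).

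The region over FOS (hg19 chr14:75740384-75749361) was covered over 5.21, 5.41 and 4.98 kb in Control (5.198 ± 0.218 kb), 6.06, 5.89 and 7.13 kb in CDK19KD (6.36 ± 0.672 kb) and 6.06, 7.08 and 8.29 kb in CDK8KD (7.14 ± 1.12 kb). Both knockdown groups lay above Control without overlap, and they overlapped each other. The log2 differences from Control were 0.45 ± 0.166 for CDK8KD (adjusted p = 0.240) and 0.29 ± 0.166 for CDK19KD (adjusted p = 0.582). After scaling they were 0.42 (adjusted p = 0.337) and 0.43 (adjusted p = 0.440), which are close to each other.

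Counted over the family, CDK8KD lay above Control without overlap at 2 of 9 sites on the 10 kb share (FOS and FOSB), where 12.8% of all windows did. It did so at 3 of 9 on the 100 kb share (FOSL2, FOS and JUN, against 15.3%) and at 3 of 9 on the region length (FOS, FOSB and JUND, against 15.8%). No site lay below Control without overlap, where 4.5%, 5.42% and 4.34% of all windows or regions did. The fitted difference was positive at 7 of 9 sites on the 10 kb share and at all 9 on the other measures, with medians of 6.23 points, 5.92 points and a log2 of 0.17. Over all windows or regions the medians were 0.88 points, 0.20 points and 0.10. After scaling, 6 of 9 sites were positive and 3 negative on the 10 kb share, with a median of 3.83 points, and all 9 stayed positive on the other measures, with medians of 4.74 points and a log2 of 0.145. Scaling gives a window that is full in every library a difference that reflects the total covered length alone, as at FOSL1 and FOSL2.

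**Figure D3:**
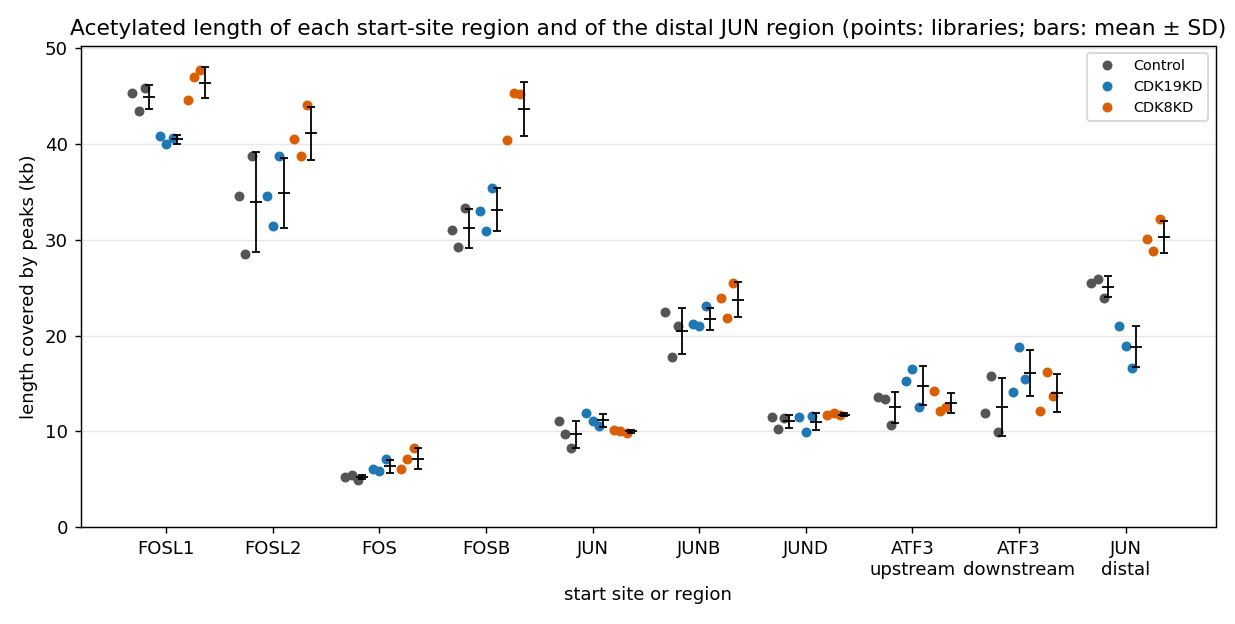
Length covered by peaks in the merged region over each start site and in the region beside JUN, in kb, with 1 point per library coloured by group and bars for the mean ± SD (n = 3). At FOSB the CDK8KD points lie at 40.4 to 45.4 kb above all others, and in the region beside JUN the CDK19KD points (16.7 to 21.0 kb) lie below Control and the CDK8KD points above it.

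CDK19KD and Control were compared next. The acetylated share of the 100 kb around ATF3 was higher in all 3 CDK19KD libraries and the FOSL1 region was shorter, but again no site was called. On the 10 kb share 0 of 9 sites passed limma's test, where 0.0781% of windows did, and on the other measures 0 of 9 passed where 0.0% of windows and 0.0% of regions did. At an unadjusted p under 0.05 there were 1, 2 and 0 sites on the 10 kb, 100 kb and region measures, the 2 being the overlapping ATF3 windows. The shares of all windows or regions with such a p were 9.92%, 11.0% and 10.6%. The replicate block gave 3, 2 and 2 such sites, against 15.1%, 21.9% and 18.0%.

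Around the upstream ATF3 start the 100 kb window was covered to 33.9%, 39.7% and 28.7% in Control (34.1% ± 5.50), to 46.4%, 48.5% and 42.0% in CDK19KD (45.6% ± 3.35) and to 39.3%, 37.0% and 36.6% in CDK8KD (37.6% ± 1.47). All CDK19KD libraries lay above all libraries of the other groups, and CDK8KD overlapped Control. The difference between CDK19KD and Control was 11.5 ± 3.80 points (adjusted p = 0.444). Around the downstream start, in a window that shares much of its length with the other, the difference was 7.93 ± 3.52 points (adjusted p = 0.453). After scaling the differences were 15.9 points (adjusted p = 0.269) and 11.9 points (adjusted p = 0.364).

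The region over FOSL1 (hg19 chr11:65643512-65691688) was covered over 45.3, 43.4 and 45.9 kb in Control (44.9 ± 1.28 kb), 40.8, 40.0 and 40.6 kb in CDK19KD (40.5 ± 0.431 kb) and 44.6, 47.0 and 47.8 kb in CDK8KD (46.4 ± 1.66 kb). The CDK19KD libraries lay below all others. The log2 difference between CDK19KD and Control was −0.15 ± 0.078 (adjusted p = 0.544) and came to −0.00038 after scaling by total covered length.

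Over the family, CDK19KD lay above Control without overlap at 2 of 9 sites on the 10 kb share (FOS and FOSB, against 6.52% of all windows), at 2 of 9 on the 100 kb share (both ATF3 windows, against 6.07%) and at 1 of 9 on the region length (FOS, against 6.9%). The 2 ATF3 windows overlap each other and are not separate measurements. CDK19KD lay below Control without overlap at 0 of 9 sites on the 10 kb share, against 7.24%, and at FOSL1 alone on the 100 kb share and region length, against 9.36% and 8.44%. The median differences of the sites were 6.84 points, 3.10 points and a log2 of 0.10. Over all windows or regions they were −2.26 points, −1.52 points and −0.05. After scaling, the medians of the sites were 15.5 points, 7.07 points and a log2 of 0.245, and those of all windows or regions turned to 1.06 points, 0.11 points and 0.10. The 10 kb windows of FOSL1 and FOSL2 are full in every library, so their scaled differences reflect the total covered length alone. Scaling multiplies each share, so the points it adds grow with the share covered at every site. The sites had a median 10 kb share of 88.54%, against 29.41% over all windows. The scaled medians in points therefore differ in part through the scaling itself.

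**Figure D4:**
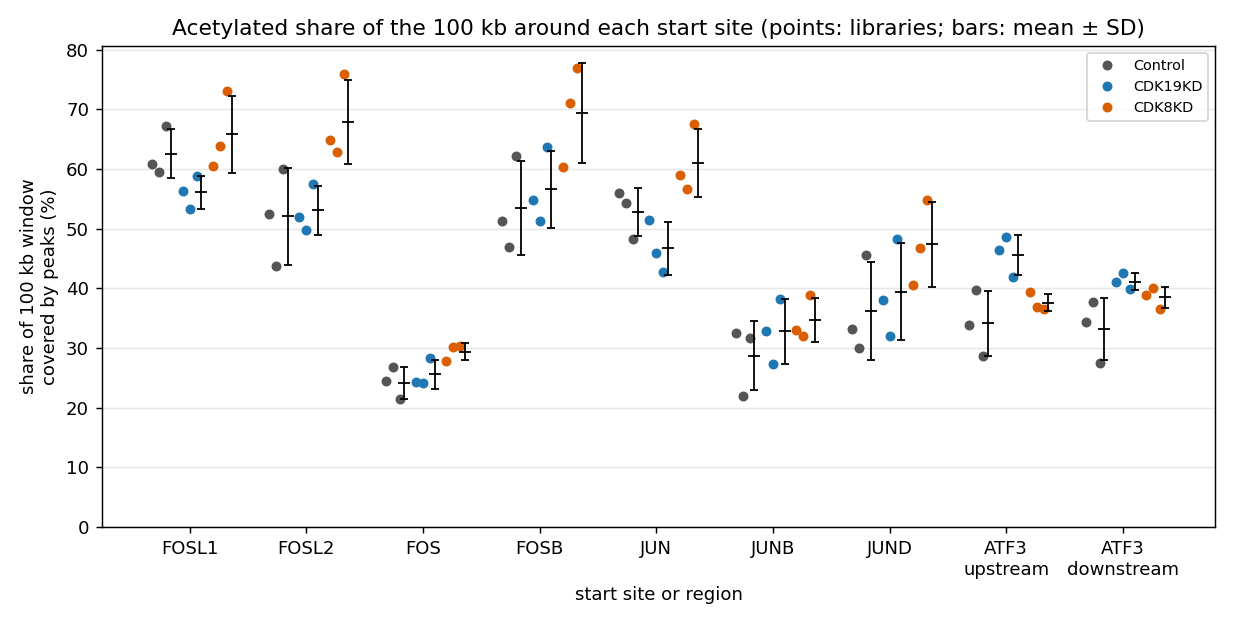
Share of the 100 kb window around each start site that peaks covered, in percent, with 1 point per library coloured by group and bars for the mean ± SD (n = 3). The CDK19KD points stand above Control at both ATF3 starts, and the CDK8KD points of FOSL2 (62.9% to 75.8%) stand above those of the other groups.

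The comparison of CDK19KD with CDK8KD, which uses the same libraries as the comparisons with Control, depended on the measure and on the scaling. Without scaling the fitted difference was positive at 3 sites and negative at 3 on the 10 kb share, negative at 7 of 9 on the 100 kb share and negative at 6 of 9 on region length. After scaling it was positive at 8, 3 and 6 of 9 sites, with medians of 12.4 points, −2.18 points and 0.05. The 12.4 points are what scaling alone gives a window that is full in every library of both groups, as at FOSL1, FOSL2 and JUNB. Those sites count among the 8. No start site was called by limma on the 10 kb share (0 of 9 against 1.01% of windows), the 100 kb share (0 of 9 against 0.463%) or the region length (0 of 9 against 0.626% of regions). At an unadjusted p under 0.05 there were 0, 2 (FOSL2 and JUN) and 2 (FOSB and FOSL1) sites. For all windows or regions the shares were 14.6%, 15.2% and 15.6%. The replicate block gave 0, 6 and 3 such sites, against 20.3%, 25.6% and 24.4%. With the replicate block 1 of 9 was called on the 100 kb share (FOSL2, against 6.36%) and 1 of 9 on region length (FOSB, against 4.76%). CDK19KD lay below CDK8KD without overlap at 0, 3 and 3 of 9 sites, against 15.4%, 20.7% and 19.7%. It lay above at 0 of 9, at 1 of 9 on the 100 kb share (ATF3 upstream, against 4.63%) and at 1 of 9 on region length (JUN, against 4.52%), with 5.38% on the 10 kb share.

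At FOSB the region length was lower in CDK19KD than in CDK8KD by a log2 difference of −0.40 ± 0.099 (adjusted p = 0.107). The difference was −0.22 after scaling by total covered length, and the adjusted p was 0.0328 with the replicate block. The FOSL2 100 kb share differed by −14.8 ± 5.34 points (adjusted p = 0.225, or 0.0328 with the block). The scaling took this difference to −7.43 points. The median region of the genome moved from −0.15 to 0.03 on the log2 scale with the scaling, and for FOS, JUNB and JUND the sign of the region difference between CDK19KD and CDK8KD turned with it.

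Between the start sites and their 50 kb limits, the peaks of the 9 lists merged into 63 separate regions, the regions over the starts included. Of these 32 were held by all 9 libraries (50.8%), 13 by 1 library and 18 by 2 to 8 libraries. Among all 120387 merged regions 28.3% were held by all 9. FOS had 11 regions within 50 kb, of which 4 were held by all libraries, and FOSL1 had 5, of which 4 were. Of the 32 regions, limma called 1 between CDK19KD and CDK8KD, where 0.626% of all regions were called, and 4 had an unadjusted p under 0.05, against 15.6%. Between CDK8KD and Control 0 were called (0.69% of all) and 7 had such a p (15.2%). Between CDK19KD and Control 0 were called (0.0%) and 1 had such a p (10.6%). The replicate block called 2 between CDK8KD and Control and 2 between CDK19KD and CDK8KD, where 4.57% and 4.76% of all regions were called. With the block 9 regions had an unadjusted p under 0.05 between CDK19KD and CDK8KD (24.4% of all). There were 11 between CDK8KD and Control (23.1%) and 6 between CDK19KD and Control (18.0%).

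The called region lies beside JUN (hg19 chr1:59203560-59236213), 13.8 kb from the start site on the side of lower coordinates, which is downstream because JUN is read from the minus strand. It is described in full because of its call and so was chosen after its values were seen. A single peak of CDK8KD replicate 3 sets its edge nearest the start and joins its parts into a single region. Every other library holds separate peaks there, so the bounds come from the group that was higher. Peaks covered 25.5, 25.9 and 23.9 kb of it in Control (25.1 ± 1.05 kb), 21.0, 18.9 and 16.7 kb in CDK19KD (18.9 ± 2.15 kb) and 30.1, 28.8 and 32.1 kb in CDK8KD (30.3 ± 1.67 kb). The 3 groups did not overlap, with Control between the knockdowns.

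Between CDK19KD and CDK8KD its log2 difference was −0.69 ± 0.111 (adjusted p = 0.0410, where 0.626% of regions were called). Against Control it was −0.42 ± 0.111 for CDK19KD (adjusted p = 0.268) and 0.27 ± 0.111 for CDK8KD (adjusted p = 0.285), and neither was called. After scaling by total covered length the difference between the knockdowns was −0.52 with an adjusted p of 0.174. When single libraries were left out it ranged from −0.77 to −0.61 with adjusted p from 0.0402 to 0.182, and the call was lost on leaving out any single library except Control replicate 3.

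The merged region over the JUN start itself (hg19 chr1:59244574-59256922) ran the other way. It was covered over 11.0, 9.73 and 8.26 kb in Control, 11.9, 11.0 and 10.6 kb in CDK19KD and 10.1, 10.1 and 9.84 kb in CDK8KD. CDK19KD lay above CDK8KD without overlap, with a log2 difference of 0.16 ± 0.137 and an adjusted p of 0.633. The 100 kb window of JUN was covered to 56.0%, 54.2% and 48.3% in Control, 51.5%, 45.9% and 42.8% in CDK19KD and 58.9%, 56.6% and 67.5% in CDK8KD. CDK19KD lay below CDK8KD there without overlap, with a difference of −14.3 ± 4.43 points (adjusted p = 0.165), or −7.76 points after scaling (adjusted p = 0.634).

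JUNB and JUND, the other JUN genes, were not called in any comparison. The JUNB region was covered over 22.5, 17.8 and 21.0 kb in Control, 21.2, 21.0 and 23.1 kb in CDK19KD and 23.9, 21.8 and 25.5 kb in CDK8KD, and all 3 groups overlapped. The log2 difference between CDK8KD and Control was 0.22 ± 0.119 (adjusted p = 0.426). The JUND region had 11.7, 11.9 and 11.7 kb in CDK8KD and 9.98 to 11.6 kb in the other libraries, which do not overlap, but the difference from Control was 0.09 ± 0.118 (adjusted p = 0.782). A region 4.8 kb from the JUND start differed between CDK8KD and Control by a log2 of 0.44, without scaling. It was called with the replicate block (adjusted p = 0.0347, where 4.57% of regions were called) but not without it (adjusted p = 0.286).

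A few small regions had a peak in every library of a group and in no library of another group. Of the 63 regions, 2 were held by all CDK8KD and no Control libraries, against 0.605% of all merged regions, and 2 by all CDK8KD and no CDK19KD libraries, against 0.772%. None was held by all Control and no CDK8KD libraries (0.39%), by all CDK19KD and no Control libraries (0.599%) or by all Control and no CDK19KD libraries (0.42%). None was held by all CDK19KD and no CDK8KD libraries (0.822%). The regions named next were chosen after their values were seen.

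One lies 28.6 kb from the FOS start (hg19 chr14:75773588-75774505, 918 bp) and was found in CDK8KD alone, with −log10 p of 2.54, 3.83 and 4.2 as the authors' caller gave them. A second lies 40.5 kb from the downstream ATF3 start (hg19 chr1:212822500-212823592) with −log10 p of 3.64, 2.72 and 3.33 in CDK8KD and 2.4 in CDK19KD replicate 1. A region 13.5 kb from the FOSL2 start (hg19 chr2:28597264-28602480) was held by all CDK8KD libraries, by Control replicate 3 and by no CDK19KD library. All these peaks were weak, between the 5.9th and the 54.8th percentile of their lists.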

How the data were processed

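H3K27ac ChIP-seq libraries of 3 groups with 3 libraries each were analysed, grouped by their titles, and the 3 input samples were not used here. The authors deposited 1 broad peak list per library, and the submitters' processing notes name MACS2, deepTools and hg19. Versions, settings and read depths are not given in the sources used here. Each deposited peak has a fold enrichment (a linear ratio), a −log10 p, a −log10 q and a score, and only the ratio and −log10 values were used, within their own list.

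Peaks on chromosomes 1 to 22 and X were kept. The covered share of 10 kb and 100 kb windows (mean share at least 5%) and the log2 covered length of merged regions held by all 9 libraries were fitted with limma 3.58.1 in R 4.3.3 (eBayes with trend), 9 libraries in 1 fit, with Benjamini-Hochberg adjustment over the whole table and calls at adjusted p under 0.05. The script was tested on simulated data, where it recovered large changes in part for 10 kb windows and regions and nearly all of them for 100 kb windows. The planted changes were larger than any difference reported here for a start site. They lay in windows and regions of middle level, without replicate pairing. That test therefore cannot show whether differences of the size seen at the start sites would be called. The 8 genes and 9 sites are all named, and were chosen, like the lists, with earlier results of these data known. Deviations of same-numbered libraries from group means correlated at 0.138 to 0.611 in all 9 pairs, above 0.1, so replicate numbers were taken to pair the samples. The reported fit has no block, as set out in the design, so its SEs and p-values leave this pairing out. Blocked values stand beside it where they change a call and for the counts at an unadjusted p. Alternatives were stricter peak lists, narrower windows, other region rules, no trend, scaling by total covered length, the block, both together (added after seeing the data) and leaving out each library. Other pathway genes and cell type markers were not analysed here, because no hg19 annotation was used. The cell line was taken from the labels.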

Additional observations from a re-analysis of the deposited data

How the results depend on the processing

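Of 165 values that count called or held sites under an alternative, 157 stayed within the set limits and 8 moved, all from 0 called sites. For CDK8KD against Control, narrower windows (2.5 kb to each side) called 1 site (FOSB, adjusted p = 0.0447, against 0.559% of all windows), the replicate block called 2 sites on the 100 kb share (FOSB and FOSL2) and 1 on region length (FOSB). Scaling with the block called 1 on each (FOSL2, against 11.1% of windows, then FOSB, against 3.77% of regions). For CDK19KD against CDK8KD, the block called 1 site on the 100 kb share (FOSL2) and 1 on region length (FOSB), and scaling with the block called 1 on the 100 kb share (ATF3 upstream, 13.3 points, adjusted p = 0.0376, against 4.4% of windows). Apart from these sites and the region near JUND, the block changed no call at the start sites or in the regions around them. Leaving out single libraries gave 0 to 0 called sites on every measure, and the 9 held sites remained 9. With −log10 q of at least 5, 7 sites had a peak in every library and with the 20000 strongest peaks 8 did.

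Of 1422 differences at single sites 1381 kept their side of the threshold, and a change in size alone was not counted. A further 20 moved, which means that the sign changed with a shift larger than the SE of the reported fit. Another 12 lost a call (all in the region beside JUN) and 9 gained one. None reversed a call. Besides scaling, that region lost its call with −log10 q of at least 5 (log2 −0.73, adjusted p = 0.103), with the 20000 strongest peaks (adjusted p = 0.0524) and without the variance trend (adjusted p = 0.0903).

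Calls over the whole genome varied more. For CDK8KD against Control they ranged from 15 to 2060 windows of 10 kb (559 in the reported fit), from 0 to 1468 of 100 kb (106) and from 0 to 1555 regions (235). For CDK19KD against Control the ranges were 1 to 1205 (61), 0 to 813 (0) and 0 to 261 (0). For CDK19KD against CDK8KD they were 42 to 1629 (785), 0 to 839 (61) and 0 to 1620 (213). Scaling changed the split of higher and lower calls between CDK19KD and CDK8KD from 176 and 609 to 129 and 210 for 10 kb windows, and from 6 and 55 to 9 and 21 for 100 kb windows. For regions between CDK8KD and Control it changed from 209 and 26 to 72 and 22. Without read depth, a wider peak cannot be told apart from a deeper library.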

Other observations

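The FOSL2 peak was broken on the side of higher coordinates in Control replicate 2, CDK19KD replicate 2 and CDK8KD replicate 1, where the piece over the start was 15.41, 16.13 and 21.07 kb wide. In the other 6 libraries the peak measured 27.9 to 41.34 kb. The JUND peak was broken in Control replicate 2 and CDK19KD replicate 2 but not in CDK8KD replicate 2, where it measured 11.9 kb. Peaks still covered 10.3 kb of the merged JUND region in Control replicate 2 and 9.98 kb in CDK19KD replicate 2. At the upstream ATF3 start the peak was 4.69 kb wide in Control replicate 3 alone, against 12.14 to 16.46 kb elsewhere. The downstream ATF3 peak was 18.77 kb wide in CDK19KD replicate 2 alone, against 5.55 to 8.22 kb elsewhere. In that library it took in a stretch that the other libraries held as a separate peak. Peaks covered 18.8 kb of the merged region there and 9.91 to 16.2 kb in the other libraries.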
